A study of Mus musculus with 4 samples.

Results

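Enzymes that make serine, glycine, asparagine and folate-bound one-carbon units were followed in crypt epithelium of mouse jejunum with and without YY1. The 10 genes are Phgdh, Psat1, Psph, Shmt1, Shmt2, Mthfd1, Mthfd2, Mthfd1l, Aldh1l2 and Asns, of 18193 genes measured. A member was represented by every probe set, a group of short array oligonucleotides for the same transcript, whose annotation names that gene and no other. This gave 24 probe sets. The set was chosen on the difference of Psat1, which is among the largest increases in the comparison of knockout with control. That comparison therefore chose the members, and their values in it are given as a description without a test.

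Crypts were freed with EDTA and filtered, and each group held 2 arrays, which the labels call biological replicates. The knockout mice carried floxed alleles of Yy1, the gene of a zinc finger transcription factor, and Vil-Cre-ERT2, a tamoxifen-dependent Cre recombinase under the Villin promoter of the intestinal epithelium. The treatment label of all 4 arrays gives tamoxifen for 4 days, and the strain label of all is C57BL/6J enriched. The other group is labelled control, and its genotype is not given in the sources used here, so it may or may not have carried Cre. It is also unclear from the wording whether control mice received tamoxifen. Effects of Cre and of tamoxifen cannot be told apart from those of Yy1 loss. The ages of the mice and any pooling of animals are not given in the sources used here.

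Cells make serine from the glycolytic intermediate 3-phosphoglycerate in a chain of reactions run by Phgdh, Psat1 and Psph. Serine hydroxymethyltransferase then moves a carbon of serine onto tetrahydrofolate and leaves glycine, with Shmt1 in the cytosol and Shmt2 in mitochondria. The carbon unit is oxidised to formate in mitochondria and returns through the cytosolic folate enzymes to the synthesis of purines and thymidylate and to methionine, which dividing crypt cells draw on. Asns makes asparagine from aspartate and glutamine. Many of these genes are known targets of Atf4, a transcription factor of the response to amino acid shortage and other stress.

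Promoter sequences are shown for 4 of the members whose transcripts were higher together in the knockout arrays and whose windows held a motif match. Shmt1 and Mthfd1 also met this and are not printed. RefSeq promoter windows of the build GRCm38.p6, 250 bases before to 50 bases after a transcription start, were found for 9 of the 10 members, in 10 windows. Of the motifs searched on both strands, the C/EBP-ATF element TGATGNAA, a composite site that Atf4 is known to bind, matched only Asns, at bases -23 to -16 before the start. It is held by 3.97% of all 32851 windows. The NF-Y motif CCAAT matched 6 of the 10 member windows, those of Phgdh, Psat1, Psph, Shmt1, Mthfd1 and Mthfd2, against 37.4% of all windows. Psat1 held 3 matches, at -36, -6 and 24, and Mthfd2 held 3, at -96, -47 and -22. The YY1 motif GCCATNTT, the cAMP response element TGACGTCA and the E-box CACGTG were not among the letters of any member window. They occur in 6.05%, 1.79% and 7.15% of all windows. No matches overlapped. A match is a description of the letters and not a binding site. The 100 bases before the start are printed 5′ to 3′ on the coding strand, with CCAAT matches (ATTGG on the other strand) and the C/EBP-ATF match in capitals. The regions are chr6:7693210-7693309 for Asns, chr19:15925060-15925159 for Psat1, chr5:129787254-129787353 for Psph and chr6:83317605-83317704 for Mthfd2, all on the minus strand.
Asns: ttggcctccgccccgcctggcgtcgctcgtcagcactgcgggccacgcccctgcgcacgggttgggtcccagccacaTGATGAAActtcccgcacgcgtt
Psat1: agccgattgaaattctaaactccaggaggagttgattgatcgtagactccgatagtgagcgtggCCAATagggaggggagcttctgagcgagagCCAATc
Psph: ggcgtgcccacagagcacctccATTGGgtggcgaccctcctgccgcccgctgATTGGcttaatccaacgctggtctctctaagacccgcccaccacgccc
Mthfd2: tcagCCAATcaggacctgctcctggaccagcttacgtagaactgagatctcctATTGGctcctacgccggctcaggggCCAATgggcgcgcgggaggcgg

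Across the series, Yy1 fell in both knockout arrays, by 2.74 ± 0.09 (SE) on the log2 scale (adjusted p = 0.000101, limma). Its intensities were 1051 and 1007 in control and 140 and 142 in knockout, and all 4 of its probe sets were lower, by log2 differences of -4.31 to -1.37. Median intensities of the arrays lay between 139 and 143. The median of 27 array controls for Bacillus genes, a measure of background picked for its dim signal, lay between 31.9 and 35.6. All 9 markers of the epithelium read 2879 or more in every array, and of these Vil1 (-0.53 ± 0.15) and Cdx2 (-0.39 ± 0.09) were called lower in the knockout. Dropping control replicate 1, control replicate 2 or knockout replicate 1 left 0 of these calls, and dropping knockout replicate 2 gave 3. The fibroblast and muscle list summed to 1580 and 1781 in control and 1536 and 1374 in knockout arrays. Enterocyte markers were lower in the knockout, with 8 of 13 called lower and 0 higher (median log2 difference -0.65), and dividing-cell markers were higher, with 8 of 12 called higher and 0 lower (median 0.52). Dropping either control array left 4 enterocyte calls, and dropping knockout replicate 2 gave 13. Dividing-cell calls numbered 5 when control replicate 2 or knockout replicate 1 was dropped. The log2 ratio of 3′ to 5′ Gapdh control probe sets, which reads RNA integrity and labelling, was 1.40 to 1.44 in control and 1.65 to 1.71 in knockout arrays. The part of these shifts in the results below was not tested.

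Values below are linear intensities in control replicates 1 and 2 and then knockout replicates 1 and 2. Log2 differences are knockout minus control of log2(intensity + 16) ± SE of the fit over all genes, with 2 arrays per group. A gene with several probe sets is represented by the one with the highest mean on this scale. A gene is called at an adjusted p under 0.05. In whole crypts, fewer cells of a type and less RNA per cell cannot be told apart.

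Of the 10 members, 8 stood higher in both knockout arrays than in both controls, and Aldh1l2 and Phgdh stood lower, Phgdh by a margin within its error. By the threshold used for all genes, 8 were called higher and 1 lower, where 13.4% of all genes were called higher, 11.0% lower and 24.4% in either direction. Both knockout arrays lay above both controls in 32.7% of all genes and below them in 29.3%. Nothing is read from these counts, because this comparison chose the members. The median log2 difference of the 10 members was 0.81, and that of all genes was 0.01. Over the 14 alternative settings, the differences of the 8 higher members stayed above 0, the lowest being 0.27 for Shmt1. These settings reuse the same arrays and comparison, so this too is a description.

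Psat1, the aminotransferase of the second step of serine synthesis, had intensities of 651, 486, 2155 and 1771. Both knockout arrays lay far above both controls, and replicate 1 was the higher array of each group. The log2 difference was 1.77 ± 0.16, 3.4-fold higher on this scale. Its other probe set read 575, 454, 2217 and 2021 (2.02 ± 0.13).

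Phgdh, the dehydrogenase that opens the serine pathway, gave different readings with different probe sets. The one that represents the gene by the rule read 299, 289, 282 and 286, so that the groups were nearly level (-0.05 ± 0.09). A second set read 160, 118, 552 and 393 (1.65 ± 0.19). A further set read 159, 142, 498 and 423 (1.51 ± 0.12). In both of these sets the knockout arrays stood far above the controls. The remaining set was dim at 64.2, 64.5, 102 and 80.8 (0.41 ± 0.12). A pair of further probe sets names Phgdh together with a transcribed pseudogene, Gm8096 or Gm6756, and was left out of the member count. They read 55.4, 59.8, 85.4 and 87.8 (0.48 ± 0.10) for the former and 140, 110, 466 and 359 (1.60 ± 0.16) for the latter. The suffix x marks sets with probes that may also match other sequences, and pseudogenes of Phgdh exist, so these readings cannot be assigned to Phgdh alone. Sets of Shmt2, Mthfd1 and Asns carry this suffix too, among them the representing sets of Shmt2 and Asns. The difference of Phgdh was thus -0.05 with the representing set and 0.88 with the mean of its 4 sets. With the set that has the highest mean on the linear scale it was 1.65.

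Psph, the phosphatase that releases free serine in the last step, read 438, 461, 843 and 758. Both knockout arrays were well above both controls, and the replicates of each group lay close together. Its log2 difference was 0.81 ± 0.10, from a single probe set.

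**Figure D1:**
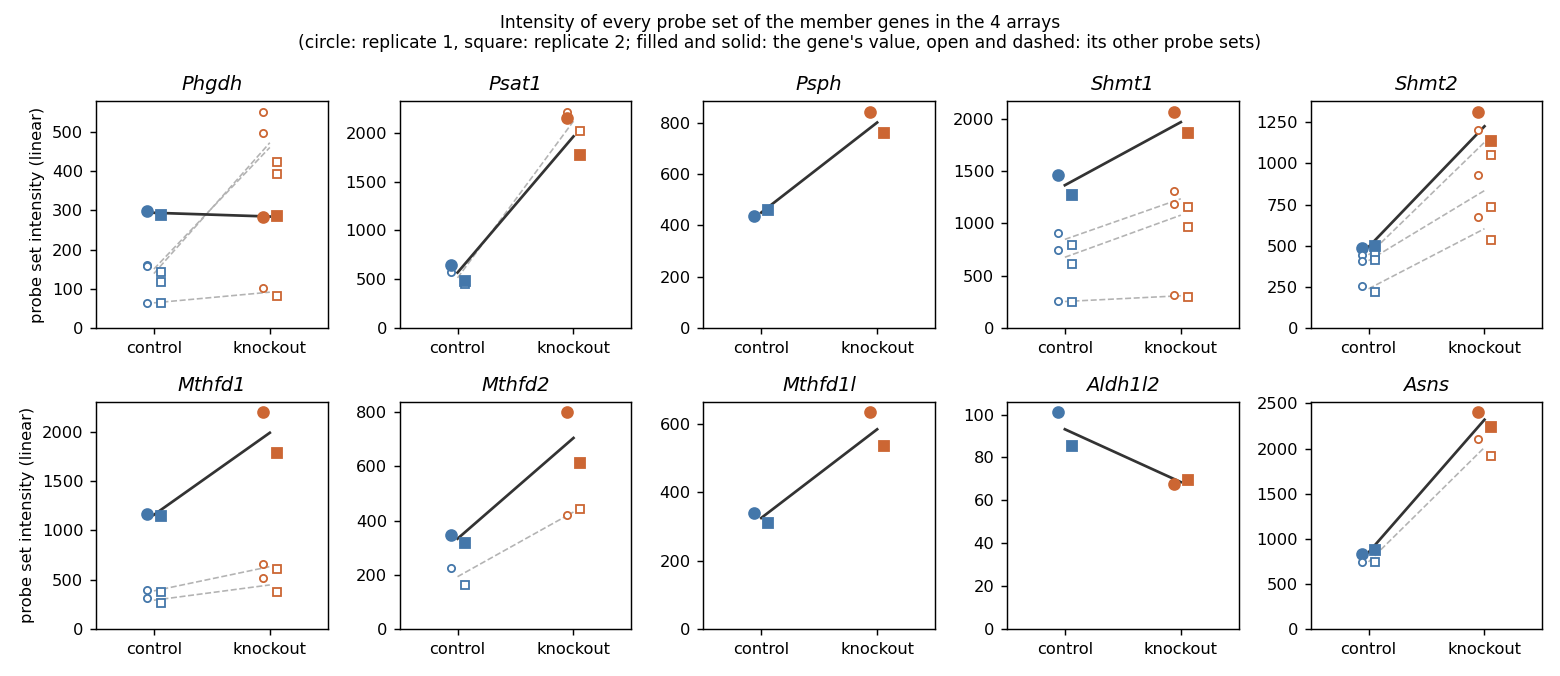
Intensity (linear axis from 0) of each probe set of the 10 members in the control (blue) and knockout (orange) arrays, with circles for replicate 1 and squares for replicate 2. Filled symbols and solid lines through the group means are the probe set that represents the gene, and open symbols and dashed lines are the others. The representing set of Phgdh is level while others of its sets are higher in knockout, and Aldh1l2 is the member with lower values in knockout, at 67.5 and 69.4 against 101 and 85.3.

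Both serine hydroxymethyltransferases stood higher in both knockout arrays. Shmt2, the mitochondrial enzyme, read 486, 499, 1314 and 1136 (log2 difference 1.28 ± 0.11, 2.4-fold). Its other 3 probe sets gave 1.31 ± 0.11, 0.99 ± 0.13 and 1.28 ± 0.14, so all 4 placed both knockout arrays above both controls. Shmt1, the cytosolic enzyme, read 1458, 1269, 2066 and 1865 (0.52 ± 0.11). The other sets of Shmt1 gave 0.54 ± 0.12, 0.66 ± 0.14 and 0.27 ± 0.10, the last at intensities of 260, 248, 319 and 299. The groups did not overlap with any of them. Shmt1 kept its direction but had a smaller difference when control replicate 2 was dropped (0.42), when knockout replicate 1 was dropped (0.45) and with its dimmest probe set (0.27). Whether it passed the threshold used for all genes depended on the setting.

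Among the folate enzymes that carry the carbon onward, those that make and release formate were higher. Mthfd2, the mitochondrial methylenetetrahydrofolate dehydrogenase and cyclohydrolase, read 347, 319, 799 and 611 (1.04 ± 0.14). Its other probe set read 224, 162, 422 and 441 (1.12 ± 0.15). Every knockout value of Mthfd2 exceeded every control value within its set. Mthfd1l, the mitochondrial formyltetrahydrofolate synthetase that frees formate, read 339, 309, 633 and 534 (0.81 ± 0.12). Mthfd1, the cytosolic enzyme that joins these activities in a single protein, read 1169, 1144.5, 2195 and 1783 (0.77 ± 0.12). The controls of Mthfd1 were nearly equal while its knockout arrays differed by more. Its other sets gave 0.69 ± 0.10 and 0.58 ± 0.16.

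Aldh1l2, the mitochondrial formyltetrahydrofolate dehydrogenase that oxidises the carbon unit to carbon dioxide, went the other way. It read 101, 85.3, 67.5 and 69.4 with its only probe set (-0.37 ± 0.11). Both knockout arrays were below both controls, at levels not far above the Bacillus controls. The difference lay between -0.47 and -0.24 over the alternatives, and whether Aldh1l2 passed the threshold used for all genes depended on the setting. The difference was -0.26 and -0.47 on dropping control replicates 1 and 2. On dropping knockout replicates 1 and 2 it was -0.35 and -0.38.

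Asns, asparagine synthetase, read 826, 869.5, 2400.2 and 2239.5 (1.43 ± 0.10, 2.7-fold). Replicates lay close together in both groups, and its SE was among the smallest of the members with a large difference. The second probe set read 745, 743, 2103 and 1922 (1.42 ± 0.10). Asns is also the member whose promoter window held the C/EBP-ATF element printed above.

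The probe sets of a gene share its RNA and are not replicates, yet they show how far a reading depends on the oligonucleotides. Of the 24 member probe sets, 22 placed both knockout arrays above both controls and 2 placed them below, the representing set of Phgdh and the set of Aldh1l2. Over all genes, each by its representing set, 32.7% lay above and 29.3% below in this way. Nothing is read from the member count, because this comparison chose the members. More than 1 probe set was present for 7 members. Among these the sets of Asns gave log2 differences of 1.43 and 1.42, while those of Phgdh ranged from -0.05 to 1.65.

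**Figure D2:**
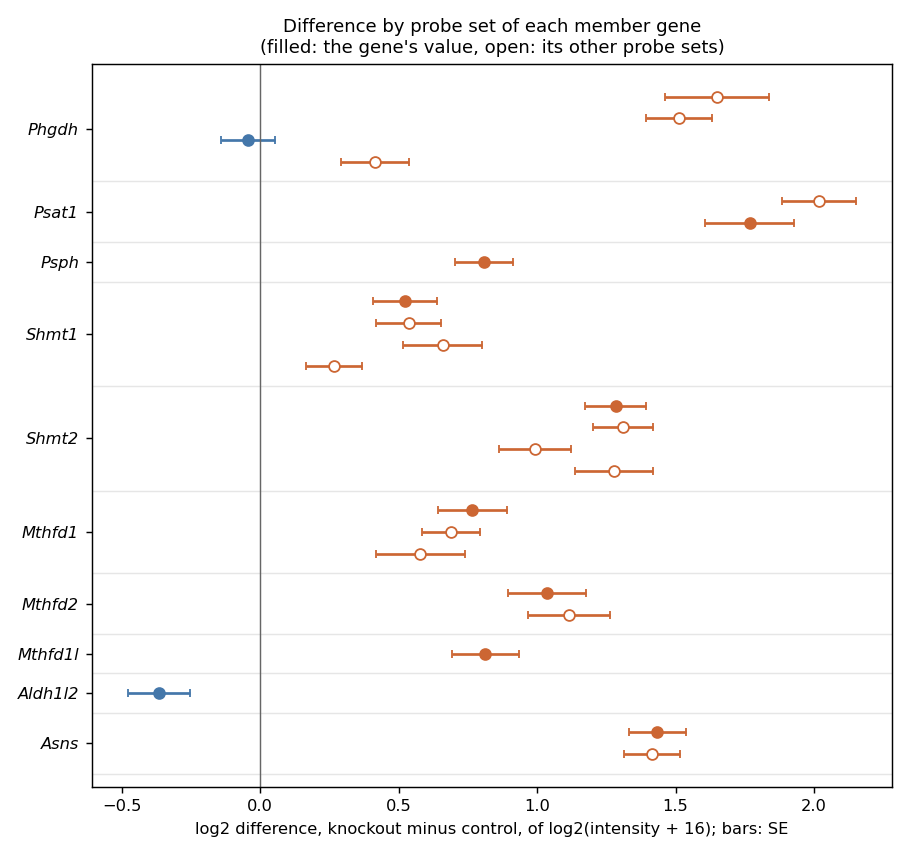
Log2 difference, knockout minus control, of log2(intensity + 16) for each of the 24 member probe sets (points) with the SE of the fit over all probe sets (bars). Filled points represent the gene, and orange and blue mark differences above and below 0. The sets of Phgdh spread from -0.05 to 1.65, and those of Asns, at 1.43 and 1.42, lie close together.

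The 2 knockout arrays differed in degree. All 8 members that were higher had the larger value in knockout replicate 1 than in knockout replicate 2. Among all genes called higher, 80.4% had their larger value in the former. Against the control mean, the median member deviated by 0.92 in the former array and by 0.71 in the latter. Mthfd2 showed a large gap, with 799 against 611, and Asns a small one, with 2400.2 against 2239.5. Markers moved in the same order: the enterocyte list had a median deviation of -0.999 in the former and -0.41 in the latter, and the dividing-cell list of 0.61 and 0.43. Summed enterocyte intensities were 99497 and 98116 in control, 50901 in knockout replicate 1 and 73557 in knockout replicate 2. The part of these markers in the member values was not tested.

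**Figure D3:**
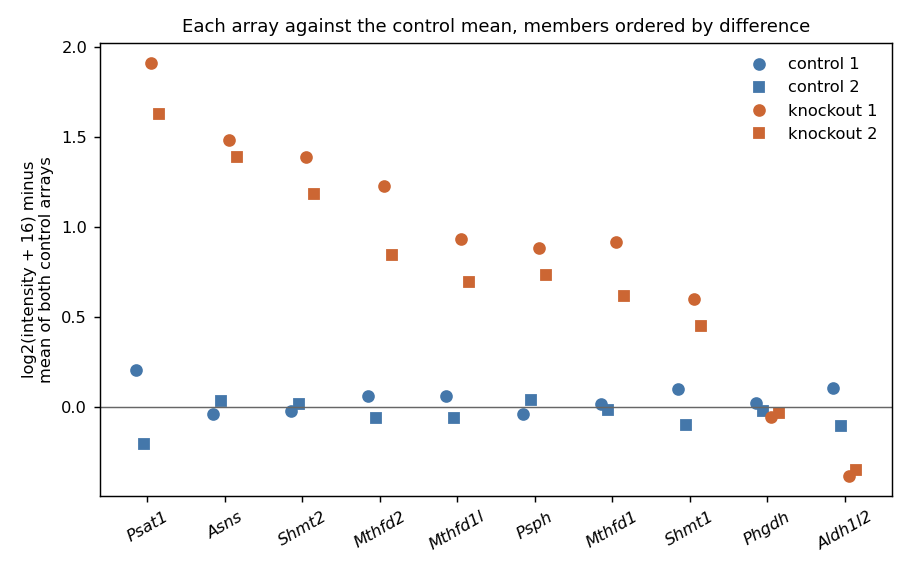
Each array's log2(intensity + 16) minus the mean of both control arrays for the 10 members, ordered by the difference between groups. Blue points are controls and orange points knockout arrays (circles replicate 1, squares replicate 2). Knockout replicate 1 lies above knockout replicate 2 for the 8 members from Psat1 to Shmt1, and all of these points lie above both controls.

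Genes of the pathways around the members were then read from lists of carriers, folate, methionine, glycolytic and amino acid enzymes and the Atf4 response. These lists were drawn from textbook pathways, with earlier results of these data known. Of 131 listed genes 115 had a probe set of their own, and 25 rose and 19 fell, or 21.7% and 16.5%, where 13.4% and 11.0% of all genes did. Their median log2 difference was 0.08, against 0.01 for all genes. When control replicate 1, control replicate 2 or knockout replicate 1 was dropped, the genes that fell numbered 12, 11 and 12, and those that rose 18, 17 and 21.

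**Figure D4:**
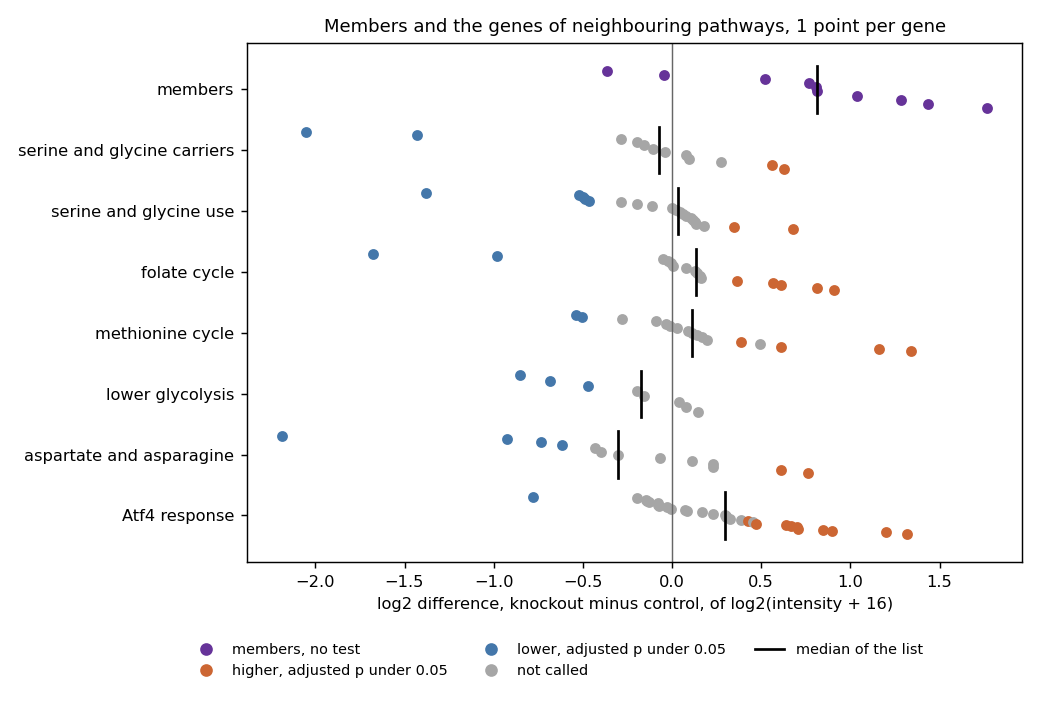
Log2 difference, knockout minus control, of log2(intensity + 16) for each member (purple) and each measured gene of 7 neighbouring pathway lists, 1 point per gene. Orange and blue points passed an adjusted p under 0.05 as higher and lower, grey points did not, and black bars are list medians. The member median is 0.81 and the list medians lie between -0.31 and 0.30.

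Of 12 carriers of serine and glycine, 2 rose and 2 fell. Sfxn1, which takes serine into mitochondria, fell from 2136 and 1868 to 667 and 801 (-1.43 ± 0.13, adjusted p = 0.000921). Its second probe set gave -1.47 ± 0.16, and the groups lay far apart with both. Slc36a1, a proton-coupled carrier of small amino acids such as glycine, fell from 608 and 709 to 146 and 146 (-2.05 ± 0.11, adjusted p = 0.000206). At the plasma membrane the neutral amino acid carriers Slc1a4 (987 and 1168 against 1736 and 1601, 0.63 ± 0.12, adjusted p = 0.00924) and Slc38a2 (662 and 675 against 1002 and 986, 0.56 ± 0.09, adjusted p = 0.00618) rose. Slc1a4 missed the threshold without control replicate 1 (adjusted p = 0.0630). Over the alternatives its adjusted p ranged from 0.00257 to 0.472, and that of Slc38a2 from 0.00327 to 0.0699, both highest with the dimmest probe set.

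Of 20 enzymes that use serine or glycine, 2 rose and 5 fell. Gcsh, the carrier protein of the glycine cleavage system, rose from 2699 and 2478 to 4326 and 3985 (0.68 ± 0.10, adjusted p = 0.00461). Gldc, the decarboxylase of that system, was at 98.8 and 109 in control and 91.0 and 98.3 in knockout (-0.11 ± 0.10, adjusted p = 0.487). Pipox, a peroxisomal oxidase of sarcosine, fell from 620 and 626 to 198 and 265 (-1.38 ± 0.14, adjusted p = 0.00129). Alas1, which condenses glycine in the first step of heme synthesis (-0.49 ± 0.09, adjusted p = 0.01002), and Ptdss1, which makes phosphatidylserine (-0.50 ± 0.10, adjusted p = 0.0134), also fell. Leaving out any 1 array moved these counts, to 1 gene that rose in each case, and to 2, 1 and 2 that fell without control replicate 1, control replicate 2 and knockout replicate 1. Alas1 missed the threshold without either control (adjusted p = 0.0658 and 0.0596), and Ptdss1 without control replicate 2 or knockout replicate 1 (0.0972 and 0.0584). These p were as low as 0.00670 and 0.00265 under other alternatives.

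Of 16 other folate genes, 5 rose and 2 fell. Slc25a32, the mitochondrial folate carrier, rose from 524 and 550.0 to 1009 and 904 (0.81 ± 0.10, adjusted p = 0.00255). Of its 3 probe sets the dimmest, at 71.8 to 94.2, was not called (0.15, adjusted p = 0.494, and from 0.000854 to 0.494 over the alternatives). Atic and Gart, which spend formyl-folate in purine synthesis, rose by 0.91 ± 0.12 (adjusted p = 0.00273) and 0.61 ± 0.14 (adjusted p = 0.0175). Mtfmt, which formylates the mitochondrial initiator tRNA, rose by 0.57 ± 0.10 (adjusted p = 0.00739). Aldh1l1, the cytosolic counterpart of Aldh1l2, fell from 1065 and 922 to 258 and 347 (-1.68 ± 0.15, adjusted p = 0.00097). Its other, dim probe set read 99.6 and 84.4 against 70.5 and 57.4, and gave -0.44 without a call (adjusted p = 0.0548, and from 0.000161 to 0.0548 over the alternatives). Both formyltetrahydrofolate dehydrogenases were lower in both knockout arrays than in both controls, as were 29.3% of all genes. Aldh1l2 was dim, and a link between these falls was not tested. Tyms, which spends the carbon on thymidylate, was at 254 and 278 in control and 295 and 301 in knockout (0.16 ± 0.10, adjusted p = 0.324). Without control replicate 2 the rising genes numbered 2 and without knockout replicate 1 they numbered 3. Gart missed the threshold without control replicate 2 (adjusted p = 0.110) or knockout replicate 1 (0.0762), and Mtfmt without control replicate 2 (0.0544). Over all alternatives the adjusted p ranged from 0.00516 to 0.110 for Gart and from 0.00627 to 0.206 for Mtfmt.

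Of 17 genes of the methionine cycle and its branches, 4 rose and 2 fell. Mtap, which salvages methionine from a polyamine by-product, rose from 327 and 262 to 881 and 663 (1.34 ± 0.16, adjusted p = 0.00223). Mtr, the methionine synthase that takes its methyl group from folate, rose from 56.4 and 60.2 to 180 and 124 (1.16 ± 0.16, adjusted p = 0.00326). The control level of Mtr was close to the Bacillus controls, and its second probe set gave 0.49 ± 0.10. Srm, spermidine synthase, rose by 0.61 ± 0.10 (adjusted p = 0.00535), and Ahcyl2, a relative of the enzyme that hydrolyses S-adenosylhomocysteine, fell by 0.54 ± 0.11 (adjusted p = 0.0132). The count that fell was 0 when control replicate 1 or knockout replicate 1 was dropped, and 1 when either of the other arrays was. Ahcyl2 missed the threshold without either control or knockout replicate 1, with adjusted p between 0.0550 and 0.0749, and over all alternatives it ranged from 0.00259 to 0.311.

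Of 8 genes of lower glycolysis, the stretch that makes 3-phosphoglycerate and carries it on to pyruvate, 0 rose and 3 fell. The 3 act after 3-phosphoglycerate. Gapdh had no probe set of its own, so Pgk1 was the only measured gene of the list that leads to this compound. Nothing is therefore read from where the calls lie in the pathway. Pgk1, which makes 3-phosphoglycerate, was at 5987 and 5527 in control and 5958 and 6174 in knockout (0.08 ± 0.10, adjusted p = 0.649). Eno3, an enolase, fell from 158 and 135 to 73.8 and 74.2 (-0.85 ± 0.11, adjusted p = 0.00248). Eno1, another enolase, had no probe set of its own. The pyruvate kinases Pklr (-0.68 ± 0.16, adjusted p = 0.0210) and Pkm (-0.47 ± 0.11, adjusted p = 0.0221) fell too. Of these, Eno3 alone kept its call when control replicate 1, control replicate 2 or knockout replicate 1 was dropped, where Pklr had adjusted p of 0.0751, 0.0997 and 0.0524 and Pkm of 0.136, 0.0601 and 0.0962. Their lowest adjusted p over the alternatives were 0.00352 and 0.00390.

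Of 13 genes of aspartate, asparagine and glutamate metabolism, 2 rose and 4 fell. Aspa, which splits N-acetylaspartate, fell from 1700 and 1849 to 253 and 558 (-2.19 ± 0.31, adjusted p = 0.00347). The aspartate aminotransferases parted: the mitochondrial Got2 rose from 967 and 953 to 1716 and 1567 (0.76 ± 0.10, adjusted p = 0.00272), and the cytosolic Got1 fell from 2630 and 2470 to 1630.0 and 1684 (-0.62 ± 0.10, adjusted p = 0.00510). Aspg, an asparaginase, fell from 158 and 201 to 98.5 and 103 (-0.73 ± 0.13, adjusted p = 0.00728). Of the 4 probe sets of Got2, those at intensities of 1.10 to 3.65 and of 107 to 129 were not called (-0.12 ± 0.10 and -0.05 ± 0.12). Without control replicate 2 the rising genes numbered 1.

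In the Atf4 list, 10 of 30 measured genes rose and 1 fell, with a median log2 difference of 0.30. The charging enzymes Mars1 (906 and 903 against 2130.4 and 2073, 1.20 ± 0.09, adjusted p = 0.000639) and Gars (2142 and 2209 against 3583 and 3500.0, 0.70 ± 0.09, adjusted p = 0.00306), for methionine and glycine, rose. Sesn2, a stress-induced inhibitor of mTORC1 that p53 also induces, rose from 234 and 318 to 691 and 718 (1.32 ± 0.15, adjusted p = 0.00164). Chac1, which degrades glutathione, rose from 127 and 145 to 239 and 275 (0.85 ± 0.12, adjusted p = 0.00321). The transcript of Atf4 itself was at 3021 and 3040 in control and 2963 and 2973 in knockout (-0.03 ± 0.09, adjusted p = 0.862). Atf4 is known to be controlled largely through translation, which was not measured here. The part of Atf4 in the values of this list and of the members was not tested. The other members of the list that rose were Atf5, Wars, Sars, Slc7a5, Slc7a1 and Eif2ak3, and Slc3a2 fell. Of these, Slc7a1 lost its call when control replicate 1, control replicate 2 or knockout replicate 1 was dropped, Eif2ak3 when either control or knockout replicate 2 was, and Sars when control replicate 1 was. Ddit3, Trib3, Ddit4, Atf3 and Nupr1 were not called, with log2 differences from -0.08 to 0.45. Trib3 read 561 and 409 in control and 487 and 895 in knockout, so that the groups overlapped. On dropping knockout replicate 1 its difference of 0.45 became 0.88 and it was called higher.

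The profile of Psat1 over the 4 arrays, as log2 deviations from the control mean, was set against 9095 genes with a mean intensity above the median. The nearest by Euclidean distance were Mns1 (distance 0.165, log2 difference 1.87), Rad18 (0.199, 1.71), Rps25 (0.291, 1.58), Siva1 (0.350, 1.68) and Noxred1 (0.369, 1.71). Each shares with Psat1 the direction and approximate size of its difference, which the measure rewards, so this is a description of likeness over 4 arrays.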

How the data were processed

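Crypt RNA was extracted with Trizol, labelled with biotin and read on Affymetrix arrays, per the labels' protocols. The authors deposited 1 linear intensity per probe set and array, with a floor of 1. The summary method, background correction and normalization are not given in the sources used here, and values were used without further scaling. Of 45101 probe sets 34945 named 1 gene in the platform annotation of GEO, and RefSeq gave current symbols. limma 3.58.1 in R 4.3.3 (lmFit, eBayes) was run on log2(intensity + 16) over 18193 genes, each by its probe set with the highest mean on that scale, with Benjamini-Hochberg adjustment over all genes and no block. Another fit over all probe sets gave the values of single sets. Fold changes on this scale understate dim genes. The fit had 7.05 degrees of freedom and was checked on simulated data. The number of arrays limits the precision. Each SE and p-value rests on the spread of a gene between arrays of a group, moderated toward a value shared over all genes. They are thus not a measure of that gene's own spread alone.

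The members, lists and alternatives were chosen with earlier results of these data known. Named were the members, Yy1, Atf4, Tyms, Gldc, Gart, Atic, Slc1a4, Slc25a32 and Sfxn1, up to 4 called genes of smallest p per pathway list Mki67, Alpi, Lgr5, Lyz1 and the 5 genes nearest to Psat1. Other genes of the Atf4 list, Pgk1, Vil1 and Cdx2 were named after their values were seen.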

Additional observations from a re-analysis of the deposited data

How the results depend on the processing

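Alternatives were pseudocounts of 1 and 64, median and quantile scaling, leaving out genes under a mean of 64, other probe sets per gene, a trended and robust prior, a replicate block and leaving out each array. The probe set with the highest mean on the linear scale was added after seeing the data. With 1 array left out, all genes numbered 1157 to 2307 higher and 1040 to 2059 lower (reported: 2445 and 1994), and pathway genes 17 to 22 higher and 11 to 19 lower (25 and 19). The lone array of a group is then assumed to vary like the other group. Deviations from the group mean in arrays of equal replicate number had a correlation of 0.0969 over 18193 genes. With 2 arrays per group the crossed value is its exact negative. This value therefore cannot settle whether the numbers pair the arrays. Under the replicate block, 2662 and 2219 genes were higher and lower in all, and 27 and 20 of the pathway genes. Got2 turned to -0.12 with its dimmest probe set, which lies near the floor, and lost its call. Of 140 member values under alternatives 132 moved by less than the spread between replicates. Part of this count was fixed in advance. With 2 arrays per group, leaving out 1 cannot move a difference by more than this spread. Another prior, a replicate block or leaving out dim genes does not change a member's difference. The count is therefore not a measure of robustness. Of 448 values of the genes named by the rule, besides that of Got2, 28 fell short of the threshold and 1 newly passed it, Tyms with its dimmest probe set (0.61, adjusted p = 0.0229; from 0.0229 to 0.731 over its alternatives).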

Other observations

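The immune list had 1 marker called higher, Cd14, a monocyte receptor, at 118 and 118 in control and 295 and 271 in knockout (1.15 ± 0.10), while the T cell receptor subunit Cd3g and the leukocyte phosphatase Ptprc were called lower (-0.69 ± 0.11 and -0.42 ± 0.12). These 3 were named after their values were seen. The lower count was 1 when control replicate 1, control replicate 2 or knockout replicate 1 was dropped, and 3 without knockout replicate 2. Tuft cell markers had 4 of 6 called lower (median -0.53), and 2 without control replicate 1. Goblet markers had 2 of 8, and 0 when any of the same 3 arrays was dropped. Lgr5, Lyz1 and Mki67 were not called, with log2 differences of -0.11, -0.09 and 0.31, and Alpi fell by 1.69 ± 0.30. Lgr5 read 60 to 69, not far above the Bacillus controls. Of 7 stem cell markers 1 was called lower, Olfm4 (-0.62 ± 0.10), and 0 higher. Of 6 Paneth cell markers 2 were called higher, Mmp7 (0.42 ± 0.10) and Defa3 (0.56 ± 0.16), and 0 lower. With all arrays kept, the alternatives gave 1 to 2 higher Paneth calls. These calls did not all hold with an array left out, and the Paneth median log2 difference then lay between 0.08 and 0.17. Olfm4, Mmp7 and Defa3 were named after their values were seen. Tests are those of limma over all genes.

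Of the 44 called pathway genes 16 rest on a single probe set, 15 have a further set with an equal call and 13 have further sets that were all without an equal call. None had sets called in opposite directions. The probe sets of Tyms gave log2 differences of 0.16 ± 0.10, 0.34 ± 0.15, 0.09 ± 0.11 and 0.61 ± 0.14, and those of Gart 0.61 ± 0.14, 0.20 ± 0.11, 0.33 ± 0.18 and 0.44 ± 0.15.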
